A study of Homo sapiens with 12 samples.

Results

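The 10 genes described here handle iron and haem in the cell: HP, TFRC, FTH1, FTL, SLC40A1, SLC11A1, SLC11A2, HMOX1, NCOA4 and STEAP3. They were found by symbol among the 60668 gene rows of each library, and each symbol matched a single row. The libraries are of MOLM-13, an established human line of acute myeloid leukaemia with an activating tandem duplication in the receptor kinase gene FLT3 and the gene fusion MLL-AF9. Cells were grown for 8 days with gilteritinib plus MI-3454 (the combination), with MI-3454 alone, with gilteritinib alone, or with DMSO, the solvent, with 3 libraries in each of the 4 groups. MI-3454 keeps menin from binding MLL1, and gilteritinib is an inhibitor of FLT3. The medium was RPMI with heat-inactivated serum in every group. All groups share the same line, so the results describe 1 leukaemia, and no source used here says whether the triplicate cultures were grown on separate days. The p-values therefore measure the spread between these cultures.

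Iron reaches most cells as transferrin, which the transferrin receptor carries into endosomes, where a reductase reduces the iron and a divalent metal transporter moves it to the cytosol. Spare iron is stored in ferritin, a shell of heavy and light chains, and is released again when a cargo receptor takes ferritin to the lysosome. Ferroportin exports iron, haem oxygenase frees it from haem, and haptoglobin binds haemoglobin outside the cell. In the cytosol, iron regulatory proteins bind hairpins called iron-responsive elements in some of these mRNAs when iron is scarce, which blocks the translation of ferritin mRNA and stabilises the mRNA of the transferrin receptor.

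These hairpins were searched for in the GENCODE release 29 coding transcripts of the members, to show the letters of this control where a strict form of the hairpin is present. The search asked for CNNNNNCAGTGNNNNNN on the sense strand, with the 5 bases before the loop pairing with the 5 after it, G-T pairs allowed. It matched 4 of the 10 members, and 1.48% of 19684 protein-coding genes whose transcripts differ in length. The loop is in capitals.
TFRC hairpin a, 3′ UTR, chr3:196050980-196051006, minus strand: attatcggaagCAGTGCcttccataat
TFRC hairpin b, 3′ UTR, chr3:196050576-196050602, minus strand: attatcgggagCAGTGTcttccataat
TFRC hairpin c, 3′ UTR, chr3:196050511-196050537, minus strand: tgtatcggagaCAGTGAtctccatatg
TFRC hairpin d, 3′ UTR, chr3:196050464-196050490, minus strand: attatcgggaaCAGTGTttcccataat
FTH1, 5′ UTR, chr11:61967575-61967601, minus strand: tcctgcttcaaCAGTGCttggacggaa
FTL, 5′ UTR, chr19:48965336-48965362, plus strand: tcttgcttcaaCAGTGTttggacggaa
SLC40A1, 5′ UTR, chr2:189580662-189580688, minus strand: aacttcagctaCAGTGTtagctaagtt
Coordinates are on GRCh38. The other 6 members had no match to these letters with this pairing rule. SLC11A2 is among them, although its 3′ UTR is known to carry an element with an imperfect stem, so the search does not find every member under this control. It can likewise miss further elements in a matched gene such as TFRC, whose letters a to d only label the matches found here. Protein levels and translation were not measured, so only mRNA levels bear on these genes here.

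Gene counts ran from 6.47 to 12.1 M per library, and the members together took 0.275% to 0.438% of them. A level is given in CPM, the count per 1e6 gene counts after TMM scaling. All 10 myeloid markers had at least 1 count in every group. Some were near 0, with CD14 at 1 count with gilteritinib and 9 with DMSO, and CD68 at most 0.957 CPM in any library. Their summed level was 14390 to 16070 CPM with the combination, 9418 to 10630 with MI-3454, 2148 to 2202 with gilteritinib and 1536 to 1768 with DMSO. Most of that sum with the combination was LYZ, the lysozyme gene (380531 counts with the combination and 12781 with DMSO). MPO (8082 counts with the combination and 1023 with DMSO), ANPEP (906 and 57) and CD14 (410 and 9) were also higher. CD33 (5006 and 2850) and CSF1R (4353 and 2672) were higher by less. SPI1 (8182 and 8215), CEBPA (24722 and 20771) and FCGR1A (1048 and 932) stayed closer to their DMSO counts, and CD68 had 16 and 7. CD3E, MS4A1 and EPCAM, defining markers of T cells, B cells and epithelium, had at most 1 count in any group. Some library measures moved with the groups. Reads outside annotated exons made up 28.5% to 36.5% of uniquely placed reads in the combination libraries, against 16.6% to 20.4% in the DMSO libraries. RN7SL1, a non-coding RNA of the signal recognition particle, took 1.17% to 1.66% of counts in the combination libraries, against 2.31% to 4.27% in the DMSO libraries. The part of either in the results was not tested. In bulk RNA, a change in all cells and a change in the share of cells that express a gene cannot be told apart.

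With both agents, HP, NCOA4, FTL and HMOX1 were called higher than with DMSO, and TFRC, STEAP3 and SLC11A1 were called lower. A call is a Benjamini-Hochberg adjusted p under 0.05 over 13972 genes in edgeR's quasi-likelihood test. Of the 10 members, 9 passed the filter on low counts and 7 of these were called, while 57.5% of all genes tested were called in this comparison, 29.2% higher and 28.4% lower. With MI-3454 alone, 3 of the 9 were called, all higher (HP, NCOA4 and FTL), against 19.0% of all genes, 10.1% higher and 8.95% lower. With gilteritinib alone, 2 of the 9 were called, both higher (HP and NCOA4), against 15.1% of all genes, 6.92% higher and 8.18% lower. The blocked fit described under TFRC called 5 of the 9 with gilteritinib, 4 higher and 1 lower, and also more of all genes (4928 of 13972, 2474 higher and 2454 lower, against 2110 without the block). The CPM ranges of treated and DMSO libraries did not overlap for 6 of the 9 with the combination, 4 with MI-3454 and 4 with gilteritinib, against 63.7%, 35.1% and 32.7% of all genes. The median log2 change of the 9 was 0.23 with the combination, 0.11 with MI-3454 and 0.01 with gilteritinib, and that of all genes was 0 in each.

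**Figure D1:**
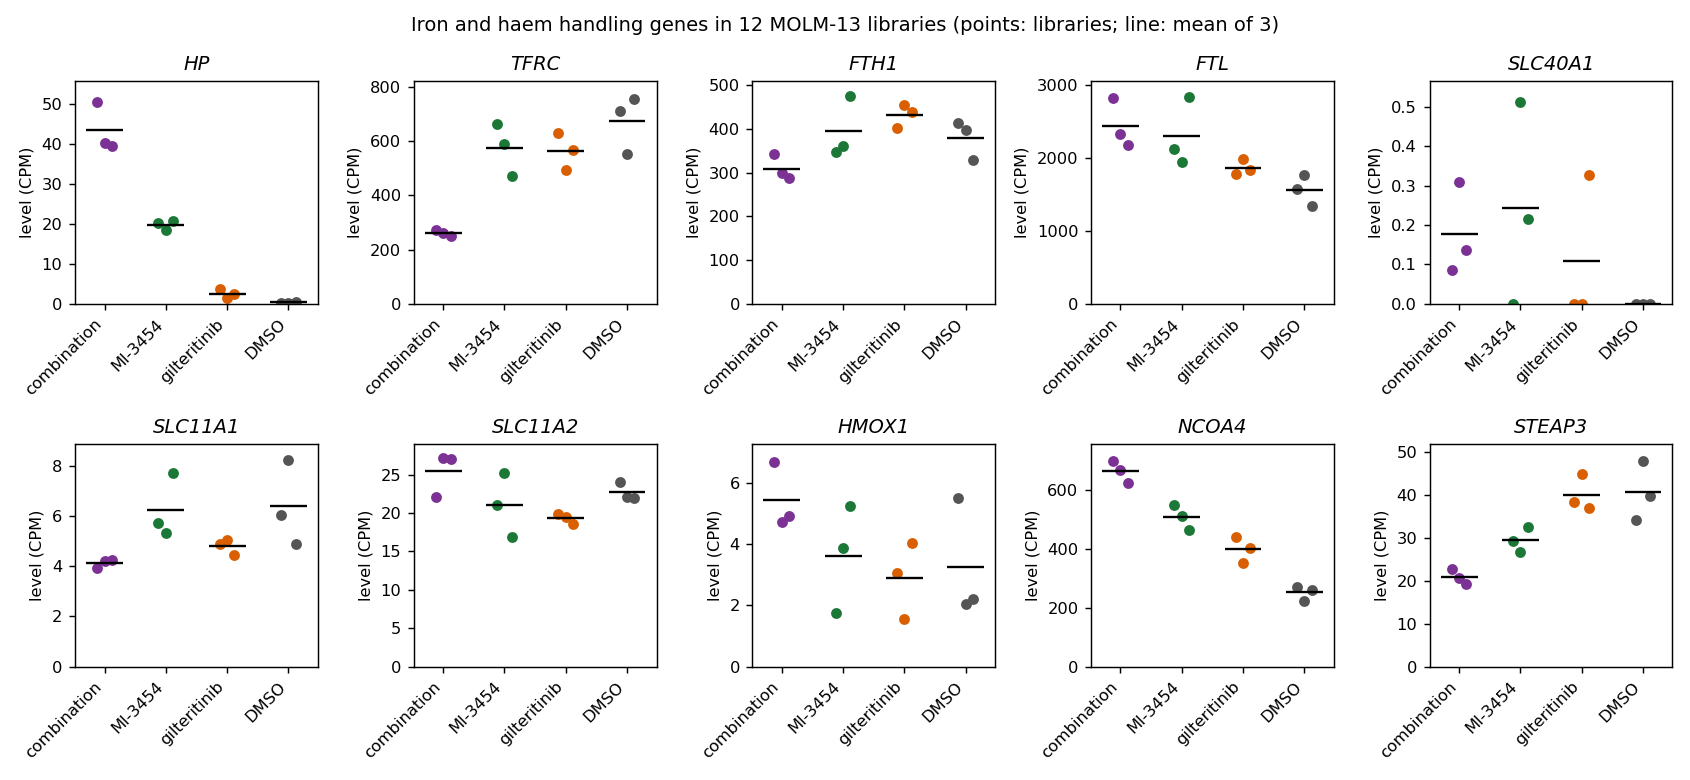
Level of each of the 10 genes in CPM (vertical axis, from 0) in every library, by group; points are libraries and lines are means of 3. HP and NCOA4 step up without overlap through gilteritinib, MI-3454 and combination libraries, while the 3 combination libraries lie below all others for TFRC and STEAP3.

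HP (ENSG00000257017.9, chromosome 16, 72054592 to 72061055, plus strand) encodes haptoglobin, a plasma protein made mainly by the liver and also stored in the granules of neutrophil precursors. Its level was 50.7, 40.3 and 39.6 CPM in the combination libraries, 20.3, 18.5 and 20.7 CPM with MI-3454, 3.59, 1.57 and 2.51 CPM with gilteritinib, and 0.280, 0.292 and 0.445 CPM with DMSO. The 4 groups did not overlap, and every treated library lay above every DMSO library. The DMSO libraries held only 10 HP counts in all, against 1270 with the combination, 557 with MI-3454 and 78 with gilteritinib. By summed counts, HP was 133-fold higher with the combination than with DMSO (exact 95% interval 72.1 to 278), 59.3-fold higher with MI-3454 (32.0 to 124) and 8.02-fold higher with gilteritinib (4.14 to 17.4), intervals that cover counting error only.

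On the log2 scale, the change in HP was 7.05 ± 0.24 (SE) with the combination (edgeR adjusted p = 6.63e-13), 5.89 ± 0.26 with MI-3454 (4.13e-08) and 2.96 ± 0.45 with gilteritinib (0.000805). Adding gilteritinib to MI-3454 went with a log2 change of 1.17 ± 0.12 (adjusted p = 5.81e-05), and adding MI-3454 to gilteritinib with one of 4.08 ± 0.19 (adjusted p = 3.86e-10). The single-agent changes sum to 8.85, more than the 7.05 measured. The interaction term, which measures that gap in a fit of all 12 libraries, was -1.81 ± 0.44 (adjusted p = 0.0118). Its call ended without DMSO 1 (-1.67, adjusted p = 0.0517). HP passed the filter on low counts through the treated libraries. HPR, the near-identical neighbour that could take HP reads, had no counts in any library.

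Of 9 hepatocyte markers, APOB, TTR, FGA, FGB and AHSG had no counts in any group, and the summed level was at most 0.547 CPM in the combination libraries and at most 0.486 CPM in the DMSO libraries. The neutrophil granule genes LTF and LCN2, whose products bind iron or iron-carrying siderophores, had 7 and 1 counts over the 12 libraries and were not tested. Of 14 genes in a list of neutrophil granule genes, 4 passed the filter and 10 did not. Most of the 14 belong to specific and tertiary granules, the stores that neutrophils fill late in maturation, but BPI belongs to primary granules. MMP9 (72 counts with the combination and 7 with DMSO) and PTX3 (165 and 16) passed through the groups where they were high, so the direction of these genes is in part set by the filter. The 4, called higher with the combination and with MI-3454, were the bactericidal protein gene BPI (3.52 ± 0.14 with the combination), the pentraxin gene PTX3 (3.46 ± 0.34), the gelatinase gene MMP9 (3.42 ± 0.46) and CHI3L1 (2.35 ± 0.12), a chitinase-like protein gene. With gilteritinib alone, BPI (1.57) and PTX3 (1.51) rose and CHI3L1 (-0.46) fell, while MMP9, with 3 counts against 7 with DMSO, was not called. The protein-coding genes most like HP over the 12 libraries were SERPINB10, CILP2 and MEFV, with Pearson's r of log2 CPM of 0.995, 0.991 and 0.990 among 9785 genes with a mean of at least 5 CPM. These points share libraries and groups, so the r is a description.

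**Figure D2:**
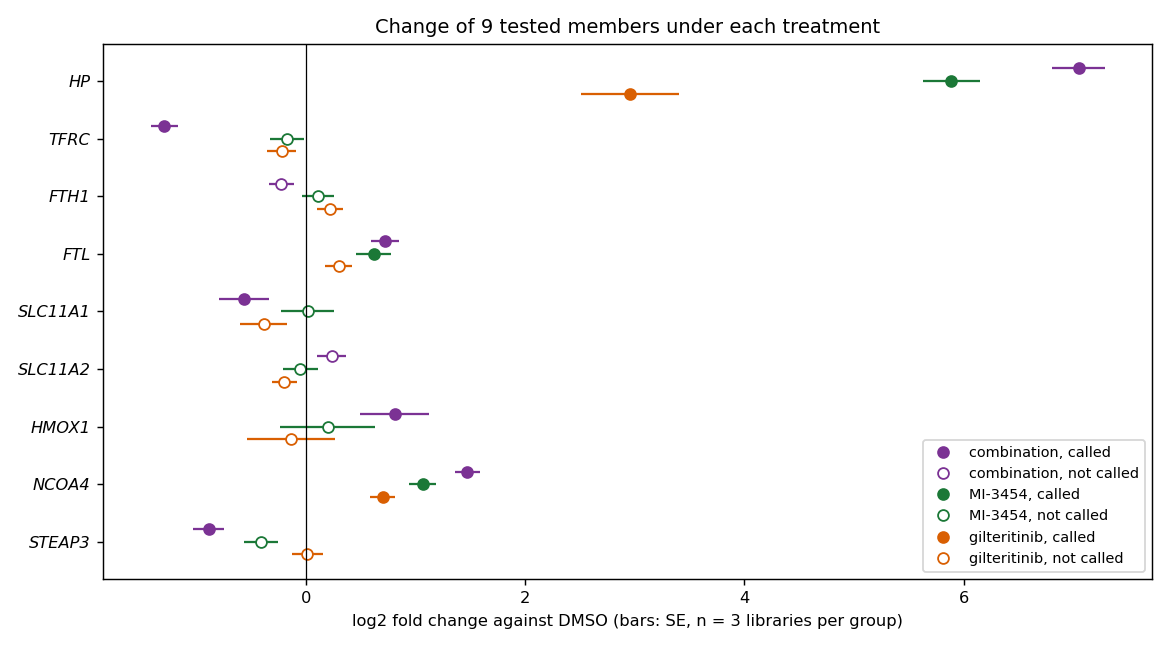
Log2 fold change against DMSO (horizontal axis) of the 9 tested members with the combination, MI-3454 and gilteritinib; points are edgeR estimates, bars are SE with n = 3 libraries per group, and filled points are called. HP lies at 7.05, 5.89 and 2.96, NCOA4 at 1.47, 1.06 and 0.70, and TFRC, STEAP3 and SLC11A1 are filled on the lower side with the combination alone.

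TFRC (ENSG00000072274.13, chromosome 3, 196027183 to 196082189, minus strand) encodes transferrin receptor 1, the main entry of iron into dividing cells. It was measured at 273, 261 and 250 CPM with the combination, 664, 591 and 473 CPM with MI-3454, 631, 494 and 568 CPM with gilteritinib, and 712, 555 and 758 CPM with DMSO. The combination libraries lay below all 9 others, whereas the ranges of each single agent and DMSO overlapped. TFRC fell to 261 ± 11.9 CPM with the combination, against 675 ± 107 CPM with DMSO (SD, n = 3 each). The log2 change was -1.29 ± 0.12 (adjusted p = 1.46e-07), a 2.45-fold fall. With MI-3454 it was -0.18 ± 0.16 (adjusted p = 0.497) and with gilteritinib -0.22 ± 0.14 (adjusted p = 0.289). The combination was also lower than MI-3454 (-1.11 ± 0.12, adjusted p = 7.69e-05) and than gilteritinib (-1.06 ± 0.10, adjusted p = 4.65e-07). The interaction was -0.89 ± 0.19 (adjusted p = 0.00558), so the fall with both agents exceeded the sum of the single-agent changes, -0.40. In a fit that treats same-numbered gilteritinib and DMSO libraries as pairs, which is not established (the blocked fit), TFRC was called lower with gilteritinib too (-0.22 ± 0.08, adjusted p = 0.0178). It was also called there when DMSO 2 was left out (-0.35, adjusted p = 0.0341) or the 4 libraries with most RN7SL1 were (-0.26, adjusted p = 0.0162). The genes most like TFRC over the 12 libraries were NAMPT, SLC39A10 and PTPN11 (r from 0.985 to 0.987).

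STEAP3 (ENSG00000115107.20, chromosome 2, 119223831 to 119265652, plus strand) encodes the endosomal ferrireductase that acts on transferrin-bound iron. Its level was 22.6, 20.5 and 19.1 CPM with the combination, 29.1, 26.7 and 32.5 CPM with MI-3454, 38.2, 44.8 and 36.9 CPM with gilteritinib, and 34.2, 47.9 and 39.7 CPM with DMSO. The combination libraries were lowest and the MI-3454 libraries next, with no overlap between them or with the DMSO range. The log2 change was -0.89 ± 0.14 with the combination (adjusted p = 4.24e-05), -0.41 ± 0.15 with MI-3454 (adjusted p = 0.0821) and 0.01 ± 0.14 with gilteritinib (adjusted p = 0.967). MI-3454 passed the threshold when all 12 libraries were fitted together (adjusted p = 0.0305), without the 4 libraries highest in RN7SL1 (0.0322) and without MI-3454 3 (0.0327). STEAP3 was lower with the combination than with MI-3454, by a log2 change of -0.47 ± 0.12 (adjusted p = 0.0137), a call that ended without combination 2 (adjusted p = 0.0633) or combination 3 (0.0646). STEAP3 fell with the combination relative to gilteritinib by 0.89 ± 0.11 on the log2 scale (adjusted p = 8.95e-06). Its nearest genes by correlation were TCF3, RRS1 and THOP1 (r from 0.988 to 0.989).

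SLC11A2 (ENSG00000110911.16, chromosome 12, 50979401 to 51028566) encodes DMT1, the transporter that carries ferrous iron out of endosomes. It was at 22.1, 27.1 and 27.1 CPM with the combination, 21.1, 25.2 and 16.9 CPM with MI-3454, 19.9, 19.5 and 18.5 CPM with gilteritinib, and 24.1, 22.1 and 21.9 CPM with DMSO. All ranges next to each other in the order of means overlapped, and the gilteritinib range lay below that of DMSO. No treatment was called against DMSO, with log2 changes of 0.23 ± 0.13 with the combination, -0.05 ± 0.16 with MI-3454 and -0.20 ± 0.12 with gilteritinib (adjusted p = 0.144, 0.863 and 0.281). Without the 4 libraries highest in RN7SL1, the combination was called higher (0.31, adjusted p = 0.0272). The combination was higher than gilteritinib by 0.44 ± 0.11 (adjusted p = 0.00435). DMTF1, SENP7 and RSKR were most like SLC11A2 (r from 0.921 to 0.942).

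SLC11A1 (ENSG00000018280.17, chromosome 2, 218382029 to 218396894) encodes NRAMP1, the related metal transporter of phagocyte vacuoles. Its level was low in every group: 3.95, 4.23 and 4.24 CPM with the combination, 5.74, 5.33 and 7.71 CPM with MI-3454, 4.88, 5.06 and 4.47 CPM with gilteritinib, and 6.07, 8.26 and 4.89 CPM with DMSO. The combination libraries lay below all others, although the gap to the lowest DMSO library was small. The combination was called lower, with a log2 change of -0.57 ± 0.23 (adjusted p = 0.0441). That call ended in 8 alternatives: DESeq2 (adjusted p = 0.0759), total-count scaling (0.0964), leaving out DMSO 1 (0.0647), DMSO 2 (0.208), combination 1 (0.118), combination 2 (0.0880) or combination 3 (0.0747), and without the 4 libraries highest in RN7SL1 (0.336). MI-3454 gave 0.01 ± 0.24 (adjusted p = 0.980) and gilteritinib -0.39 ± 0.22 (adjusted p = 0.254). The genes closest to SLC11A1 were FCGR2A, RHOF and SLC27A5 (r from 0.893 to 0.917).

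Ferritin light chain mRNA rose with MI-3454 and with the combination, while heavy chain mRNA was not called against DMSO under any treatment. FTL (ENSG00000087086.15, chromosome 19, 48965301 to 48966878, plus strand) had 2822, 2328 and 2174 CPM with the combination, 2127, 1949 and 2834 CPM with MI-3454, 1781, 1985 and 1835 CPM with gilteritinib, and 1569, 1767 and 1340 CPM with DMSO. Every treated library lay above every DMSO library, and the treated groups overlapped their neighbours. The log2 change was 0.72 ± 0.13 with the combination (adjusted p = 0.000181), 0.62 ± 0.16 with MI-3454 (adjusted p = 0.0185) and 0.30 ± 0.12 with gilteritinib (adjusted p = 0.128). The MI-3454 call ended without DMSO 1 (adjusted p = 0.0805) or DMSO 3 (0.0841). Gilteritinib passed in the blocked fit (0.30 ± 0.08, adjusted p = 0.00101), after DMSO 2 was left out (adjusted p = 0.0189) and after the 4 libraries highest in RN7SL1 were (0.00612).

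FTH1 (ENSG00000167996.16, chromosome 11, 61959718 to 61967660, minus strand), the heavy chain that oxidises iron on entry to the shell, had 341, 298 and 287 CPM with the combination, 347, 361 and 476 CPM with MI-3454, 403, 454 and 438 CPM with gilteritinib, and 413, 398 and 329 CPM with DMSO. The DMSO range overlapped that of every treatment, while the combination libraries all lay below the MI-3454 and gilteritinib libraries. MI-3454 3, the library of its group with the highest RN7SL1 share (4.56%), was also the highest of the group in FTH1 and FTL. The log2 changes were -0.23 ± 0.12 with the combination, 0.11 ± 0.15 with MI-3454 and 0.22 ± 0.12 with gilteritinib (adjusted p = 0.109, 0.684 and 0.241). The blocked fit called gilteritinib higher (0.22 ± 0.08, adjusted p = 0.0182). Without a filter on low counts (adjusted p = 0.0402), after leaving out DMSO 3 (0.0300) and after leaving out the 4 libraries highest in RN7SL1 (0.0181), the combination was called lower than DMSO. It was lower than gilteritinib by a log2 change of -0.44 ± 0.10 (adjusted p = 0.00134). Exons of FTH1 overlap those of BEST1 on the opposite strand, and the strand setting of the counting is not given in the sources used here. Both ferritin genes have processed copies: 25 FTH1 pseudogene rows held 0.656% as many counts as FTH1, and 16 FTL rows 0.0700%. The histone genes H3C13, H4C2 and H2BC13 were most like FTH1 (r from 0.962 to 0.971), and RIN3, ARF5 and NECTIN1 most like FTL (r from 0.970 to 0.983).

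The ratio of the chains within a library does not depend on scaling. FTL reads per FTH1 read were 8.27, 7.81 and 7.57 with the combination, 6.13, 5.39 and 5.96 with MI-3454, 4.42, 4.37 and 4.19 with gilteritinib, and 3.8, 4.44 and 4.07 with DMSO. The combination and MI-3454 libraries separated from each other and from the rest, whereas gilteritinib and DMSO overlapped. Per kilobase of annotated exon, FTL exceeded FTH1 17.5- to 19.1-fold with the combination and 8.78- to 10.3-fold with DMSO. These ratios were chosen after the values were seen and were not tested.

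NCOA4 (ENSG00000266412.5, chromosome 10, 46005088 to 46030714, minus strand) encodes the receptor that delivers ferritin to the lysosome for iron release. It was measured at 696, 667 and 623 CPM with the combination, 549, 510 and 462 CPM with MI-3454, 440, 350 and 403 CPM with gilteritinib, and 271, 223 and 261 CPM with DMSO. The 4 groups formed an order without overlap, from DMSO through gilteritinib and MI-3454 to the combination. NCOA4 rose to 662 ± 36.7 CPM with the combination, 507 ± 43.6 CPM with MI-3454 and 398 ± 45.4 CPM with gilteritinib, against 252 ± 24.8 CPM with DMSO (SD, n = 3 each).

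The log2 changes in NCOA4 were 1.47 ± 0.11 with the combination (adjusted p = 9.38e-09), 1.06 ± 0.13 with MI-3454 (7.90e-05) and 0.70 ± 0.12 with gilteritinib (0.00181). The combination was above MI-3454 by 0.42 ± 0.10 (adjusted p = 0.00937), a call that ended without combination 2 (adjusted p = 0.0578), and above gilteritinib by 0.78 ± 0.10 (adjusted p = 1.01e-05). The interaction was -0.29 ± 0.15 (adjusted p = 0.205). It passed without the 4 libraries highest in RN7SL1 (-0.39, adjusted p = 0.00810). The closest genes by correlation were IL6R, CARD6 and TENT5A (r from 0.979 to 0.988). With TFRC falling and NCOA4 rising, NCOA4 reads per TFRC read were 2.55, 2.56 and 2.50 with the combination, 0.826, 0.862 and 0.976 with MI-3454, 0.699, 0.709 and 0.710 with gilteritinib, and 0.380, 0.403 and 0.344 with DMSO.

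**Figure D3:**
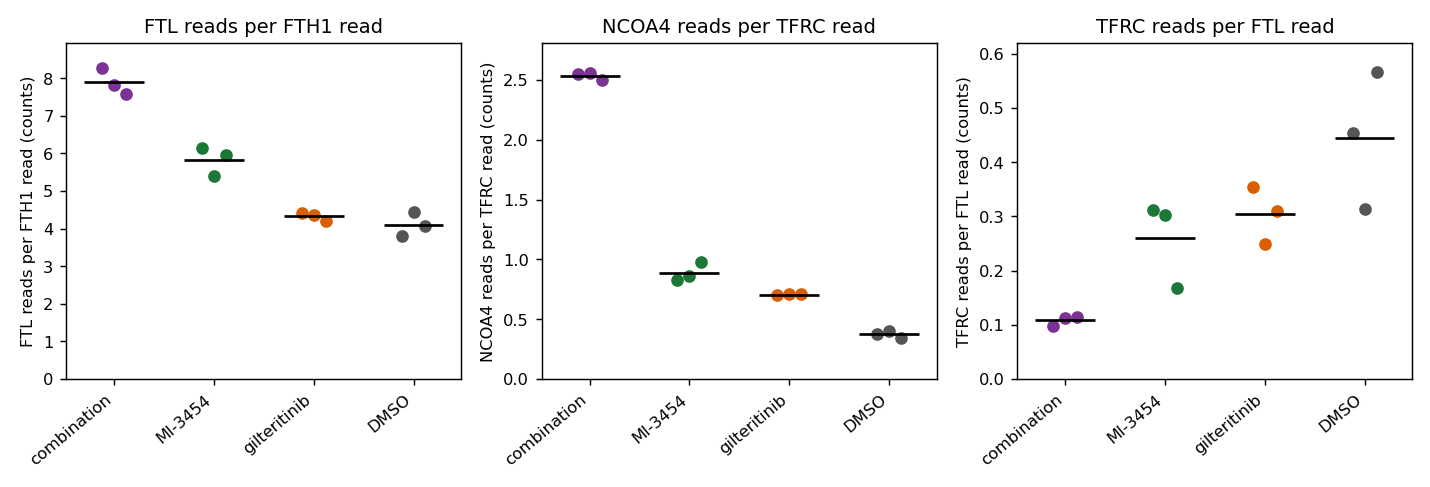
Ratios of read counts within each library (vertical axes, from 0) for FTL to FTH1, NCOA4 to TFRC and TFRC to FTL; points are libraries and lines are means of 3. Combination libraries lie at 7.57 to 8.27 FTL reads per FTH1 read and 2.50 to 2.56 NCOA4 reads per TFRC read, above every other library, and lowest for TFRC to FTL.

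HMOX1 (ENSG00000100292.17, chromosome 22, 35380361 to 35394214) encodes the inducible haem oxygenase. It was at 6.70, 4.75 and 4.92 CPM with the combination, 1.77, 3.90 and 5.25 CPM with MI-3454, 3.08, 1.57 and 4.03 CPM with gilteritinib, and 5.51, 2.04 and 2.22 CPM with DMSO. The groups overlapped, since DMSO 1 lay above 2 of the 3 combination libraries. The combination was called higher by 0.81 ± 0.32 on the log2 scale (adjusted p = 0.0368). The call ended in 6 alternatives: with all 12 libraries in 1 fit (adjusted p = 0.0909), without the 4 libraries highest in RN7SL1 (0.342), and without DMSO 2 (0.134), DMSO 3 (0.11), combination 1 (0.150) or combination 3 (0.0509). MI-3454 gave 0.20 ± 0.43 and gilteritinib -0.14 ± 0.40 (adjusted p = 0.805 and 0.858). RPS15A, PLAG1 and ZNF394 were closest to HMOX1 by correlation (r from 0.849 to 0.885).

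SLC40A1 (ENSG00000138449.10, chromosome 2, 189560579 to 189583758, minus strand), the only known iron exporter of the cell surface, was close to absent and was not tested. It had 1, 3 and 1 counts in the combination libraries, 0, 5 and 2 with MI-3454, 0, 0 and 3 with gilteritinib, and none with DMSO. A count of 0 over the 3 DMSO libraries allows a level of up to 0.100 CPM. The combination libraries all had a count and no DMSO library did, while the other ranges overlapped, and no difference was tested at these counts.

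Levels of the genes can be set beside each other only per length. In CPM per kilobase of annotated exon, FTL stood highest in every group, at 2781 ± 386 with the combination and 1775 ± 244 with DMSO (SD, n = 3 each). NCOA4 had 162 ± 9.0 with the combination and 61.7 ± 6.09 with DMSO, FTH1 152 ± 14.1 and 187 ± 22.1, and TFRC 33.1 ± 1.51 and 85.6 ± 13.5 in the same order. NCOA4 was thus below TFRC in DMSO libraries by this scale and level with FTH1 in combination libraries. Of the remaining 6 genes, HP stood highest with the combination (8.05 ± 1.15) and STEAP3 with DMSO (8.90 ± 1.52). Lengths are of all annotated exons joined, which for genes with unused exons understates the level.

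**Figure D4:**
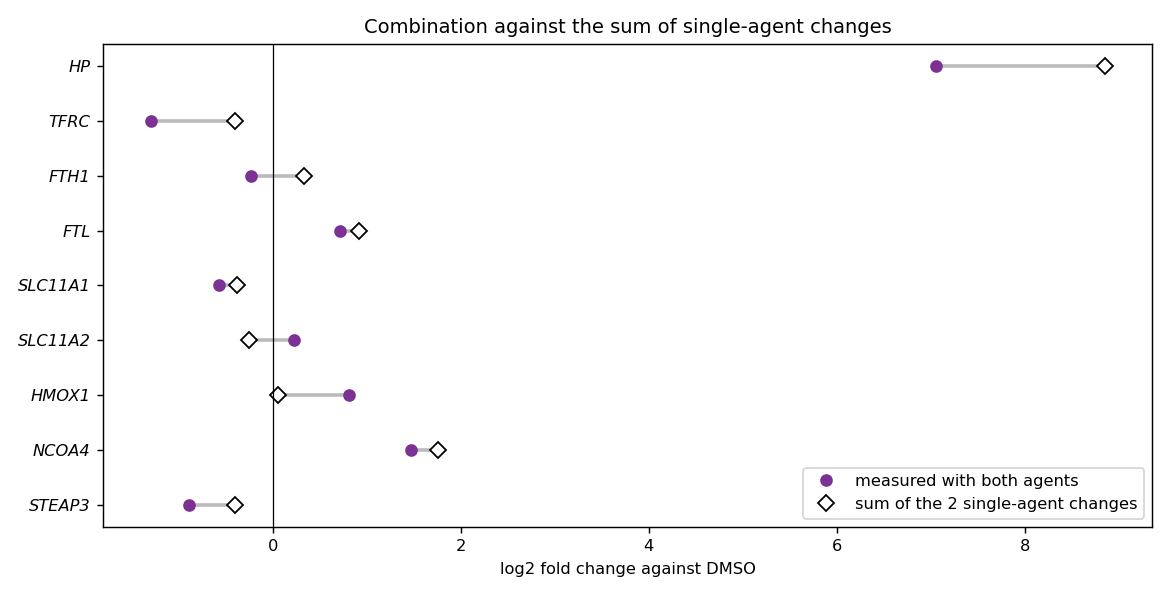
Log2 fold change against DMSO (horizontal axis) measured with both agents (filled circles) and the sum of the 2 single-agent changes (open diamonds) for the 9 tested members. The circle lies left of the diamond by most for HP (7.05 against 8.85) and TFRC (-1.29 against -0.40), the only members whose interaction term was called.

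In the interaction fit, 2 of the 9 tested members were called, both negative (HP and TFRC), while 15.3% of all genes were called, 6.55% positive and 8.74% negative. The sign has a different reading for each gene. On the log2 scale, HP rose less than the sum of its single-agent changes and TFRC fell more than that sum. For HP this rests on 10 counts with DMSO and does not hold in CPM. Its mean was 43.5 CPM with the combination, 19.8 with MI-3454, 2.56 with gilteritinib and 0.339 with DMSO, so in CPM the combination rise exceeded the sum. FTH1 lay just outside the threshold at -0.55 ± 0.18 (adjusted p = 0.0514) and passed in 7 alternatives, among them DESeq2 (-0.54, adjusted p = 0.0432). Against MI-3454, the combination was called for 4 of the 9 members, HP and NCOA4 higher and TFRC and STEAP3 lower, against 29.2% of all genes, 14.1% higher and 15.1% lower. Against gilteritinib, it was called for 8 of the 9, with SLC11A1 the exception (adjusted p = 0.447), against 60.4% of all genes, 30.1% higher and 30.3% lower. The ranges did not overlap for 6 of the 9 against MI-3454 and for 9 of the 9 against gilteritinib, while this held for 44.6% and 66.1% of all genes. Of these 8, HP, FTL, SLC11A2, HMOX1 and NCOA4 were higher and TFRC, FTH1 and STEAP3 lower. The HMOX1 difference there, 0.96 ± 0.27 (adjusted p = 0.00779), was not called with all 12 libraries in 1 fit (adjusted p = 0.0585) or without the 4 libraries highest in RN7SL1 (0.0859). With total-count scaling, calls over all genes numbered 2472 higher and 1437 lower against MI-3454 (1972 and 2103 with TMM), 5010 and 3140 against gilteritinib (4210 and 4229), and 1120 and 808 in the interaction (915 and 1221). The comparisons against DMSO share the DMSO libraries, and those of the combination share the combination libraries.

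The wider pathway was followed in 8 lists with 110 genes, of which 80 were tested. With the combination 25 of the 80 were higher and 24 lower, beside 29.2% and 28.4% of all genes, so the lists together were called about as often as any gene. With MI-3454 15 were higher and 5 lower, beside 10.1% and 8.95% of all genes, and with gilteritinib 8 and 10, beside 6.92% and 8.18%. The neutrophil granule list, not one of iron or haem genes, gave 4 of the 15 higher calls with MI-3454. Of these, MMP9 and PTX3 passed the filter through the groups where they were high, so that count is in part set by the filter. The counts of single lists below are descriptions and show nothing particular to a list. The gilteritinib counts were 15 and 14 in the blocked fit, which also called more of all genes.

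Other genes of iron uptake changed in opposite directions with the combination, 4 higher and 2 lower of 9 tested (median log2 change 0.07). The metal importer gene SLC39A14, which takes up iron not bound to transferrin, fell to 39.9 ± 3.36 CPM with the combination, 90.8 ± 5.39 CPM with MI-3454 and 84.3 ± 6.91 CPM with gilteritinib, against 181 ± 12.7 CPM with DMSO (SD, n = 3 each). Its log2 changes were -2.11, -0.94 and -1.07 (adjusted p = 8.43e-11, 8.74e-05 and 1.93e-05). The related zinc and iron importer gene SLC39A8 fell with the combination (-0.91) and rose with MI-3454 (0.45). The ferric reductase gene CYBRD1 rose with the combination (0.84 ± 0.27) and with MI-3454 (0.99), and the combination call ended without DMSO 2 (0.54, adjusted p = 0.0592) or the 4 libraries highest in RN7SL1 (0.59, adjusted p = 0.0637). TTC7A rose under all treatments (0.71, 0.52 and 0.58 with the combination, MI-3454 and gilteritinib). TF, the transferrin gene, had 15 counts over 12 libraries.

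Among genes of iron sensing and delivery, FBXL5, the iron-sensing subunit of the ubiquitin ligase that degrades iron regulatory protein IREB2, rose with the combination (1.20 ± 0.11, adjusted p = 1.30e-07) and with MI-3454 (0.92, adjusted p = 0.000121). With gilteritinib it was at -0.21 (adjusted p = 0.227). HERC2, a ubiquitin ligase reported to act on NCOA4 protein, rose under all treatments (1.13, 0.52 and 0.45). Glutaredoxin GLRX3 (-0.47 ± 0.13) and the iron chaperone gene PCBP1 (-0.35 ± 0.12) fell with the combination, and the PCBP1 call ended without combination 2 (adjusted p = 0.0755) or combination 3 (0.0904). The iron regulatory protein genes themselves, IREB2 (0.02) and ACO1 (-0.16), were not called with the combination (adjusted p = 0.917 and 0.293). HAMP, the gene of hepcidin, had 45 counts over 12 libraries.

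Of 11 tested genes of haem transport and breakdown, 6 rose and 2 fell with the combination (median 0.46). LRP1, a receptor for the haem-haemopexin complex, had 16.8 ± 3.06 CPM with the combination, 11.9 ± 3.70 with MI-3454, 1.08 ± 0.35 with gilteritinib and 3.08 ± 0.39 with DMSO (SD, n = 3 each). It rose with the combination (2.50 ± 0.20) and MI-3454 (1.99) and fell with gilteritinib (-1.45). The biliverdin reductase genes BLVRA (1.98 ± 0.22) and BLVRB (1.56 ± 0.18), whose enzymes act after haem oxygenase, rose with the combination and with MI-3454 (1.80 and 1.04), and BLVRA also with gilteritinib (0.77). The porphyrin transporter gene ABCB6, with 41 counts against 10 with DMSO, was called higher with the combination (2.14 ± 0.45), the group through which it passed the filter. CD163, the receptor that clears haptoglobin bound to haemoglobin, had no counts in any library, and the 8 tissue macrophage markers summed to 2.79 to 4.55 CPM with the combination, against 0.0934 to 0.486 CPM with DMSO. With the combination that sum was MARCO (91 counts, against 3 with DMSO) and VSIG4 (10, against 2), and the other 6 markers had no counts.

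Of 10 tested haem synthesis genes, 2 rose and 2 fell with the combination (median -0.20). ALAD (0.63 ± 0.12) and PPOX (0.52 ± 0.14), enzymes of the pathway, rose. CLPX (-0.57 ± 0.10), a mitochondrial unfoldase, and FECH (-0.40 ± 0.14), the enzyme that inserts iron, fell, and the FECH call ended with total-count scaling (adjusted p = 0.0987) and without DMSO 1 (0.0583), DMSO 3 (0.0647), combination 1 (0.0671) or combination 2 (0.0624). ALAS2, the erythroid first enzyme, had no counts, and ALAS1 was at -0.10 (adjusted p = 0.400). Of 12 erythroid markers, HBB, HBG1, HBG2, EPB42 and AHSP had no counts in any library, and the summed level was at most 0.683 CPM with the combination, 0.923 with MI-3454, 0.482 with gilteritinib and 0.667 with DMSO.

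Iron-sulphur cluster assembly genes, of both the mitochondrial and the cytosolic machinery, fell in 10 of 21 cases with the combination and rose in 2 (median -0.25). BOLA3 fell by 1.19 ± 0.18, the chaperone gene HSPA9 by 0.88 ± 0.11, LYRM4 by 0.69 ± 0.12 and ISCA1 by 0.61 ± 0.18 on the log2 scale, and the ISCA1 call ended without DMSO 1 (adjusted p = 0.0532). With MI-3454 alone edgeR called 0 of the 21, 5 had an unadjusted p under 0.05, and DESeq2 called 1. With gilteritinib alone edgeR called 0, 2 had an unadjusted p under 0.05, and DESeq2 called 0. The interaction was called for 2 of the 21, beside 15.3% of all genes.

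Among 8 regulators of the response to haem and oxidants, 3 fell and 1 rose with the combination (median -0.26). BACH1, the repressor of HMOX1 that haem inactivates, rose (0.46 ± 0.12), and EPAS1 (-1.01 ± 0.26), MAFK (-0.32 ± 0.11) and KEAP1 (-0.32 ± 0.12) fell. The MAFK and KEAP1 calls ended with total-count scaling (adjusted p = 0.0998 and 0.106), without combination 2 (0.0547 and 0.120) and without combination 3 (0.103 and 0.146), and KEAP1 also without DMSO 2 (0.0640). NFE2L2 target genes, known to be induced by oxidants, rose in 4 and fell in 3 of 10 cases (median 0.08). PRDX1, a peroxiredoxin gene, fell to 78.4 ± 4.89 CPM with the combination, against 306 ± 30.8 CPM with DMSO (SD, n = 3 each). OSGIN1 rose (1.75 ± 0.34, with 89 counts against 29 with DMSO) and ME1 fell by 1.99 ± 0.44 (14 counts against 62). OSGIN1 and ME1 passed the filter through the groups where they were high, so their direction is in part set by the filter.

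**Figure D5:**
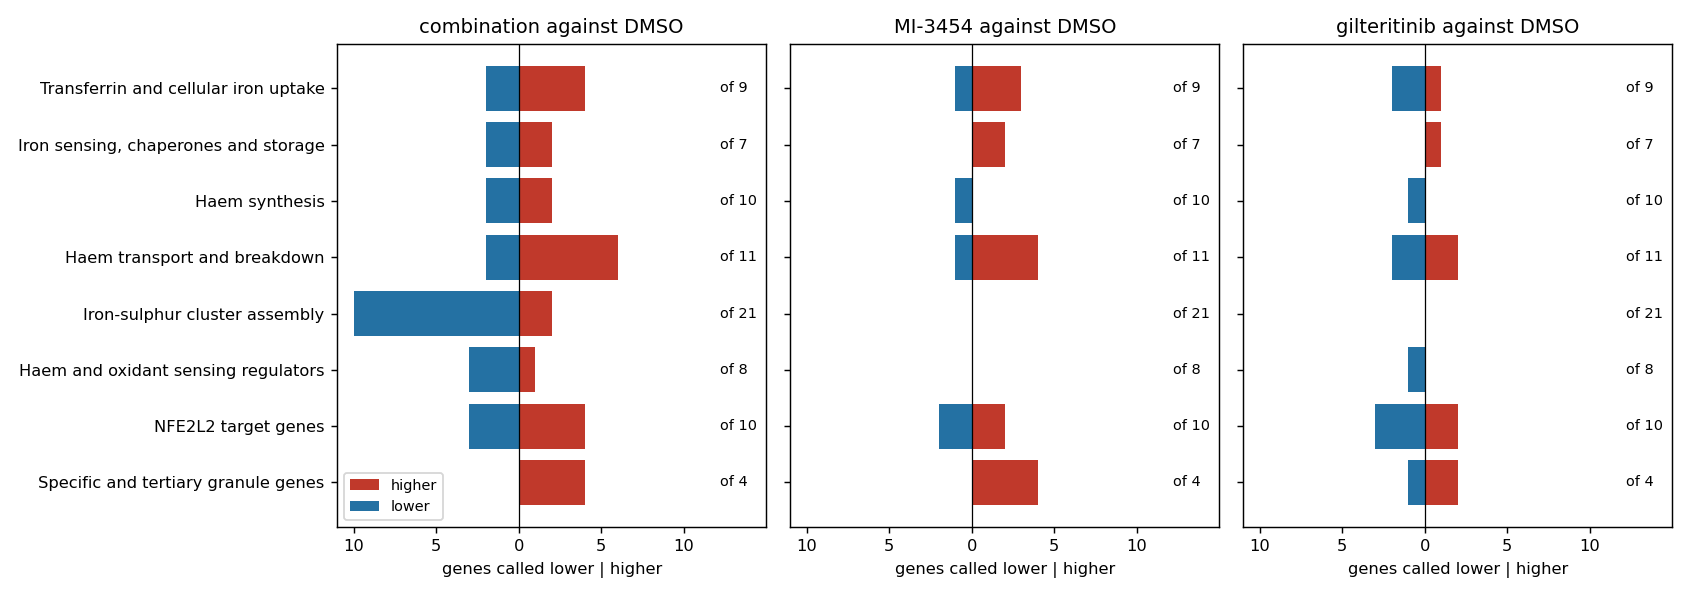
Number of genes called lower (left of 0) and higher (right of 0) in each of the 8 wider lists for the combination, MI-3454 and gilteritinib against DMSO, with the number tested at the right. Iron-sulphur cluster assembly shows 10 lower calls of 21 with the combination and none with either single agent by edgeR. Of all genes tested, 28.4% were called lower with the combination, 8.95% with MI-3454 and 8.18% with gilteritinib.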

How the data were processed

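RNA of MOLM-13 cells was depleted of ribosomal RNA and made into TruSeq libraries, per the labels' protocols. The deposited files hold the authors' raw counts of reads per gene, 1 file per library, with 60668 gene rows and 5 summary rows. Tools named in the submitters' processing notes, with no role stated, are HTSeq 0.11.2, STAR 2.7.1a, cutadapt 2.1 and DESeq2, and the build is GRCh38. No source used here states the annotation release or whether strand was used, and the treatment of reads from near-identical copies is likewise not given in these sources. Groups came from the sample titles, since the treatment label of 4 libraries gives the compound another closing digit.

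Symbols were joined by Ensembl identifier (60340 matched), and coordinates and exon lengths came from GENCODE release 29 on GRCh38. Genes passing edgeR's filterByExpr over the 12 libraries were tested (13972), each pair of groups alone, by edgeR 4.0.16's quasi-likelihood test in R 4.3.3 with TMM scaling. The interaction used all 12 libraries. An SE is the log2 change divided by the root of its F statistic. Fits were tested on simulated data. Alternatives were DESeq2 1.42.0, total-count scaling, no filter, a fit of all libraries, a replicate block, pseudogene or HPR counts added, and leaving out each library or the 4 highest in RN7SL1 (DMSO 2, gilteritinib 2, MI-3454 3 and combination 1).

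Members, lists and tests were chosen with earlier results of these data known. All members were named, with up to 4 called genes of each list by size of change with the combination and the 3 genes most correlated with each member. IREB2, ACO1, ALAS1 and genes named for counts near 0 lie outside that rule. Some list genes that the rule covers are not reported here. Same-numbered gilteritinib and DMSO libraries deviated from their group means together (r across genes 0.14, 0.39 and 0.11). Yet r was 0.21 for gilteritinib 1 and DMSO 3, and 0.10 for gilteritinib 3 and DMSO 1. The pair at 0.39, gilteritinib 2 and DMSO 2, were each highest of their group in RN7SL1, as was MI-3454 3, which had 0.51 with DMSO 2. Pairing by number is thus not established, and blocked values stand beside that comparison only where they change a call. Other groups did not pair by number.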

Additional observations from a re-analysis of the deposited data

Results flagged for a closer look

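The effect of gilteritinib differed between cells with and without MI-3454 for 2 members, by edgeR's interaction test over 12 libraries. HP had an interaction of -1.81 on the log2 scale (adjusted p = 0.0118), with all 3 combination libraries above all 3 MI-3454 libraries and all 3 gilteritinib libraries above all 3 DMSO libraries. TFRC had an interaction of -0.89 (adjusted p = 0.00558), with all 3 combination libraries below all 3 MI-3454 libraries and overlapping ranges of gilteritinib and DMSO.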

How the results depend on the processing

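HP and NCOA4 against DMSO under each treatment, TFRC, FTL and STEAP3 with the combination against DMSO, and the TFRC interaction kept direction and call under every alternative run. Over all single-gene values and alternatives, 1009 kept direction and call, 40 lost the call, 31 gained it and 17 turned direction; one of those lost is FTL with MI-3454 under the replicate block (adjusted p = 0.0888). With the replicate number as a block, 5 members and 29 list genes were called for gilteritinib against DMSO (2 and 18 without it), 12 list genes for MI-3454 against DMSO (20 without) and 13 for the combination against MI-3454 (23 without). Calls over all genes moved the same way, to 4928 for gilteritinib (2110 without), 1678 for MI-3454 (2658) and 3039 for the combination against MI-3454 (4075). The replicate numbers were not shown to pair the libraries in any of these comparisons. Without the 4 libraries highest in RN7SL1, gilteritinib gave 4 members and 31 list genes, and the interaction 6 members (2 with all libraries), with 4250 and 3478 calls over all genes (2110 and 2136 with all libraries). Leaving out 1 library at a time gave 12 to 23 list genes for MI-3454, 2 to 4 members and 10 to 31 list genes for gilteritinib, 2 to 6 members (4 with all) and 9 to 31 list genes for the combination against MI-3454, and 1 to 4 members for the interaction. The extremes came without DMSO 1 (12, 10 and 1), DMSO 2 (23, 31 and 4), combination 2 (2 and 9) and MI-3454 3 (6 and 31). Calls over all genes moved the same way. For MI-3454, gilteritinib and the interaction they were 1815, 1271 and 1631 without DMSO 1, and 2766, 3985 and 2698 without DMSO 2. For the combination against MI-3454 they were 2456 without combination 2 and 5074 without MI-3454 3. Some uncalled log2 changes turned direction. Against DMSO with MI-3454 and without the 4 libraries highest in RN7SL1, FTH1 was at -0.021, SLC11A2 at 0.056 and HMOX1 at -0.418. STEAP3 with gilteritinib was at -0.019 with total-count scaling. Leaving out 1 library gave, with MI-3454, -0.055 to 0.192 for FTH1, -0.172 to 0.243 for SLC11A1, -0.2 to 0.077 for SLC11A2 and -0.161 to 0.82 for HMOX1, and with gilteritinib -0.433 to 0.489 for HMOX1 and -0.101 to 0.151 for STEAP3. The cause was not tested. Total-count scaling moved the median of all genes to 0.10 for the combination against DMSO and 0.13 against gilteritinib (0 with TMM) and to 0.11 for the interaction (-0.02 with TMM), and no called member changed direction. Low counts limit SLC40A1 (15 counts in all) and the DMSO level of HP (10 counts).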
